A study of Mus musculus with 9 samples.

Results

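Of the 32035 mouse genes with a transcript in the deposited tables, 8 genes outside chromosomes 4 and 6 are described here, *Scara3*, *Prelp*, *Mplkip*, *Gpx6*, *Gm13941*, *Gm15130*, *Clec4g* and *Scn8a*. They were chosen by a clear change of their RNA level between *Kpna6*-/- and wild-type (WT) testes, so their values in that contrast are given as a description and carry no test. In that contrast 1.6% of 18681 genes tested were called, 0.889% higher and 0.712% lower, and 1.45% of those outside chromosomes 4 and 6. When the 16641 genes tested outside both chromosomes were ordered by their P-value in this contrast, the 8 genes took places 2 to 9. Place 1 belonged to *Gm13394*, which is not among the 8 genes and had 20.9, 18.4 and 16.0 CPM in *Kpna6*-/- libraries against at most 0.252 CPM in the other 6 (CPM is the count relative to library size, scaled by edgeR's TMM factors). The last of the 8 genes by this order, *Scn8a*, had a log2 fold change of -0.80, and the gene on place 10, *Cercam*, had 0.82.

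*Kpna6* encodes importin α7, an adaptor that carries proteins with a nuclear localization signal into the nucleus together with importin β. The study asked how loss or truncation of importin α7 alters the testis transcriptome, using whole testes of 3 WT, 3 *Kpna6*-/- and 3 *Kpna6* ΔIBB/ΔIBB male mice, all 15 weeks old and on the C57Bl6/N background after 10 generations of backcrossing. In *Kpna6*-/- mice (KO in the plots) a gene trap sits in intron 1, downstream of the upstream first exon but upstream of a testis-specific first exon, so that germ cells can still start a transcript there. In *Kpna6* ΔIBB/ΔIBB mice exon 2 is deleted, and a shortened protein without the importin β binding domain can be made from a start codon in exon 3. WT mice carried neither allele.

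Of the 8 genes, 6 encode proteins of different kinds. *Scara3* encodes a class A scavenger receptor that was described as a cellular stress response protein, and *Prelp* a small leucine-rich proteoglycan of the extracellular matrix that anchors basement membranes to connective tissue. *Gpx6* is a member of the glutathione peroxidases, enzymes that reduce peroxides with glutathione, and *Mplkip* is a gene mutated in a form of trichothiodystrophy without photosensitivity. *Clec4g* encodes a C-type lectin known from sinusoidal endothelial cells of liver and lymph node, and *Scn8a* the pore-forming subunit of the sodium channel Nav1.6. *Gm13941* and *Gm15130* are gene models on chromosome 2 that RefSeq places inside the same gene. As the tissue was analysed in bulk, fewer cells of a type and less RNA per cell cannot be told apart in any value below.

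Several of the results turn on which exons the RNA was assigned to. The short sequences that separate the transcripts of *Gpx6* and *Clec4g* are therefore given first, from GENCODE M21 (GRCm38). *Gpx6* (ENSMUSG00000004341) lies on the plus strand at chr13:21312125-21319624. The non-coding transcript Gpx6-202 starts inside the gene with an exon at chr13:21317258-21317285 (capitals), which it joins to the exon at chr13:21317569-21317590 and onwards. The coding transcript Gpx6-201 joins the end of its exon 3, chr13:21317075-21317102 (capitals), to the same bases.
Gpx6-202: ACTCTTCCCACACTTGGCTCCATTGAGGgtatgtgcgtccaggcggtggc
Gpx6-201: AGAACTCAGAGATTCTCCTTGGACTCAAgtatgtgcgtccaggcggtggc

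*Clec4g* (ENSMUSG00000074491) lies on the minus strand at chr8:3707064-3720651. Its coding transcript Clec4g-202 and the transcript Clec4g-204, which is annotated as a target of nonsense-mediated decay, share an exon that ends with chr8:3717194-3717213. From there Clec4g-202 continues into its exon at chr8:3716514-3716556, and Clec4g-204 into a more distant one at chr8:3708784-3708826 (capitals in both).
Clec4g-202: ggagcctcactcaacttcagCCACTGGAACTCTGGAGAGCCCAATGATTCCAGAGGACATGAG
Clec4g-204: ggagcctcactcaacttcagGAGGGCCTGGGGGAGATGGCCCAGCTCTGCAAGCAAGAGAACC

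*Gm13941* (ENSMUSG00000079170, chr2:111088372-111105982) and *Gm15130* (ENSMUSG00000079169, chr2:111134114-111152936) lie on the minus strand, 28132 bases apart, and RefSeq places both inside 1 gene, *A26c3* (chr2:111050410-111229603), together with 1 more GENCODE model, *4930430A15Rik*. Exons of 73 bases that follow an exon of 29 bases occur 7 times in the 3 models. They were grouped by length only, and the 21 pairs were 34.2% to 74.0% identical base by base. Whether they are copies of 1 exon was not tested. Those of *Gm13941* and *Gm15130* are shown, with capitals where a base differs from *Gm13941*, to show how far exons of equal length in both models are alike. That of *Gm13941* (exon 8) lies at chr2:111094731-111094803, and those of *Gm15130* at chr2:111144429-111144501 (exon 5) and chr2:111135383-111135455 (exon 9).
Gm13941-201 exon 8: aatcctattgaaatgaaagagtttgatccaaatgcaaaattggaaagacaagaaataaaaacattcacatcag
Gm15130-201 exon 5: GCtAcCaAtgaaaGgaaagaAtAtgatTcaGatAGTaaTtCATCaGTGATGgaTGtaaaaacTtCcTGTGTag
Gm15130-201 exon 9: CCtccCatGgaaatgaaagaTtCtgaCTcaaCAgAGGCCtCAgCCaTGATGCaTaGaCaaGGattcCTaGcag
Each *Gm15130* exon matched that of *Gm13941* at 40 of 73 bases. No stretch of at least 100 bases with at least 95% identity to another gene was found in either model.

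Between 24859751 and 31484692 estimated counts per library fell on genes, and mitochondrial genes took 1.01% to 1.33% of them. *Kpna6* itself had 201, 325 and 332 CPM in the WT libraries, 81.1, 85.5 and 81.9 CPM in *Kpna6* ΔIBB/ΔIBB and 247, 249 and 261 CPM in *Kpna6*-/- libraries. It fell in *Kpna6* ΔIBB/ΔIBB (log2 fold change -1.79, edgeR adjusted P = 1.94e-05), and in *Kpna6*-/- the log2 fold change was -0.18 (edgeR adjusted P = 0.586), or -0.38 without WT replicate 1 (edgeR adjusted P = 0.000345). Kpna6-202, which starts at the upstream first exon, had 20.9 ± 3.47 TPM in WT and 11.7 ± 0.36 TPM in *Kpna6*-/- libraries (SD, n = 3), and Kpna6-201, which starts at chr4:129662479 inside the gene, had 119 ± 38.3 and 122 ± 3.59 TPM. In the study's RT-PCR, the transcript with the upstream first exon was absent from *Kpna6*-/- testis. Kpna6-202 also ends further on, at chr4:129643980 against chr4:129647484 for Kpna6-201. Its TPM therefore need not measure use of the upstream exon. The *Kpna6* ΔIBB/ΔIBB replicate 3 stood apart in genes of the epididymis, with 67.7 CPM of *Crisp1* and 17.3 CPM of *Adam7*, while the other 8 libraries had at most 4.05 and 0.378 CPM. *Lcn5* and *Ovch2*, other genes of the epididymis, were at 0 in all libraries. The values of the 8 genes in *Kpna6* ΔIBB/ΔIBB were also taken without replicate 3, where the same number of them, 6, was called.

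In WT testes the 8 genes covered a wide range of levels, compared per transcript length as TPM (length-corrected abundance that sums to the same total in each library). *Gpx6* had the highest level, 183 ± 18.6 TPM (SD, n = 3), followed by *Gm15130* with 105 ± 7.54 and *Gm13941* with 90.4 ± 5.58 TPM. *Clec4g* followed with 15.4 ± 1.12, *Mplkip* with 8.71 ± 0.60 and *Scn8a* with 6.93 ± 0.29 TPM. *Prelp*, with 3.61 ± 0.52 TPM, and *Scara3*, with 2.96 ± 0.29 TPM, were the lowest. Their WT libraries overlapped, with 3.01 TPM in the lowest for *Prelp* and 3.21 TPM in the highest for *Scara3*, and every other neighbouring pair in this order was free of overlap in WT. By the mean level in WT, 1086 genes stood above *Gpx6* and 13230 above *Scara3*, of 25270 genes with a TPM above 0. All 8 genes passed the filter on low counts in both contrasts, with 166 to 1433 counts per library.

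**Figure D1:**
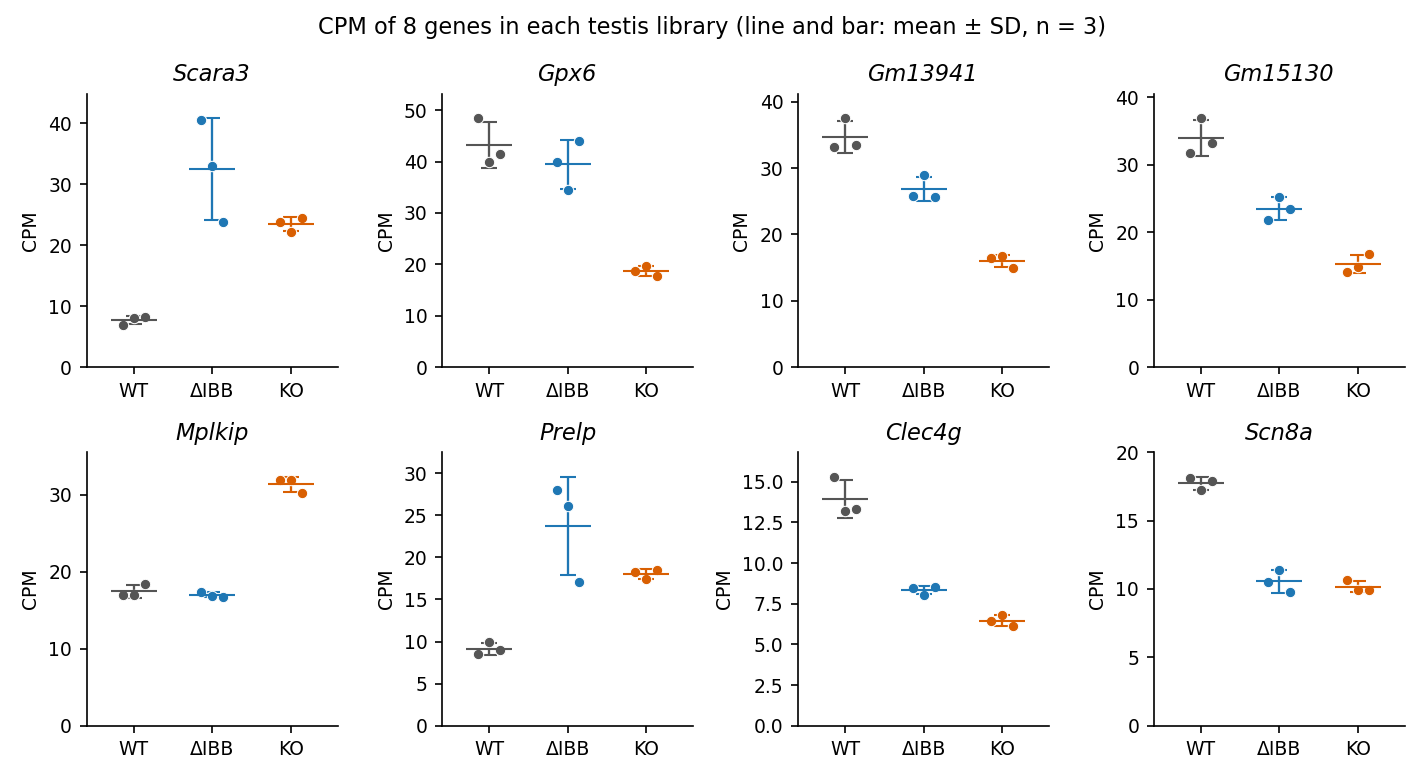
Level of each of the 8 genes in CPM (y axis, from 0) in the 3 WT, 3 *Kpna6* ΔIBB/ΔIBB (ΔIBB) and 3 *Kpna6*-/- (KO) testis libraries; points are libraries, the horizontal line is the mean and the bar the SD. *Scara3* and *Prelp* were above WT in both mutants, *Mplkip* and *Gpx6* overlapped WT in ΔIBB and not in KO, and the other 4 genes were below WT in both.

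In the contrast that chose them, all 8 genes had *Kpna6*-/- libraries that did not overlap the WT libraries, as had 19.9% of all genes tested (10.1% higher and 9.84% lower), and nothing is read from that count. *Scara3*, *Prelp* and *Mplkip* were higher and the other 5 lower, with a median log2 fold change of -0.96 against 0.0021 over all genes. The *Kpna6* ΔIBB/ΔIBB testes did not take part in the choice, although they were compared with the same 3 WT libraries. There, 6 of the 8 genes were called at an adjusted P-value below 0.05, 75% against 36.6% of all genes tested. Because the WT libraries also entered the choice, a deviation of WT in these genes would appear in both contrasts. Nothing is therefore read from the difference between these shares. *Scara3* and *Prelp* rose and *Clec4g*, *Scn8a*, *Gm15130* and *Gm13941* fell, while 17.7% of all genes were called higher and 18.9% lower. *Gpx6* and *Mplkip* did not pass the test. The 6 called genes were also those whose *Kpna6* ΔIBB/ΔIBB and WT libraries did not overlap, a state that 49.9% of all genes shared, 25% higher and 25% lower. When libraries were scaled by their size only, 70.0% of all calls were higher in place of 48.4%, the median of all genes moved by 0.098 on the log2 scale, and the 6 calls and their directions were as before.

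**Figure D2:**
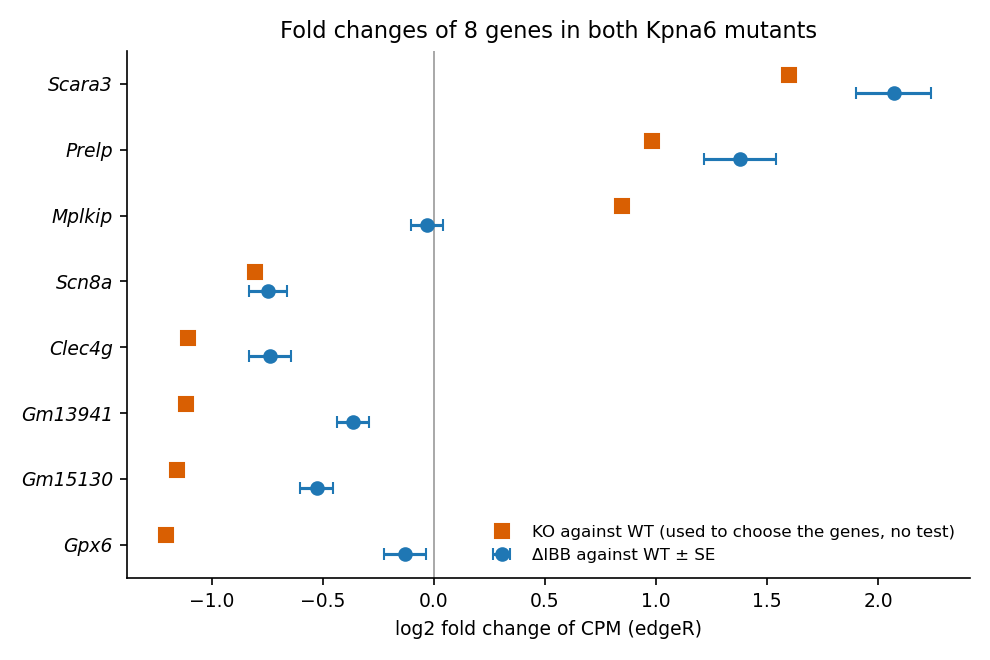
Log2 fold change of each gene against WT (x axis) in *Kpna6*-/- (squares, the contrast that chose the genes, shown with no error) and in *Kpna6* ΔIBB/ΔIBB testes (circles, bars are the SE of edgeR's fit). *Scara3* and *Prelp* lie to the right of 0 in both, *Mplkip* and *Gpx6* lie within 0.13 of 0 in *Kpna6* ΔIBB/ΔIBB only, and the remaining 4 genes lie to the left in both.

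*Scara3* (ENSMUSG00000034463, chr14:65919394-65953935, minus strand) had 6.99, 8.01 and 8.19 CPM in WT, 40.5, 33.1 and 23.9 CPM in *Kpna6* ΔIBB/ΔIBB and 23.8, 22.2 and 24.4 CPM in *Kpna6*-/- libraries. Each mutant library lay above all WT libraries, and the mutants overlapped each other. The mean was 3.03-fold that of WT in *Kpna6*-/- and 4.20-fold in *Kpna6* ΔIBB/ΔIBB testes. *Scara3* rose in *Kpna6* ΔIBB/ΔIBB with a log2 fold change of 2.07 ± 0.17 (SE, edgeR adjusted P = 1.61e-05), the strongest change among the 8 genes. Without replicate 3, the library with the epididymal genes and the lowest of its group for *Scara3*, it was 2.25.

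*Prelp* (ENSMUSG00000041577, chr1:133910304-133921414, minus strand) had 8.51, 9.89 and 8.99 CPM in WT, 28.1, 26.1 and 17.1 CPM in *Kpna6* ΔIBB/ΔIBB and 18.3, 17.4 and 18.5 CPM in *Kpna6*-/- libraries. Its libraries were arranged as those of *Scara3*, with all mutants above WT and the lowest *Kpna6* ΔIBB/ΔIBB library being replicate 3. *Prelp* rose in *Kpna6* ΔIBB/ΔIBB by a log2 fold change of 1.38 ± 0.16 (SE, edgeR adjusted P = 0.000107), or 1.57 without replicate 3, and its log2 fold change in *Kpna6*-/- was 0.98. Over the 9 libraries, log2 CPM of both genes had a Pearson correlation of 0.99, which is a description over 3 genotypes and 1 set of libraries. Among 19057 other genes, *Nfic*, a transcription factor of the nuclear factor I family, and *Prelp* were most like *Scara3*, and *Scara3* and *Cenpb*, which encodes a centromere protein, were most like *Prelp*.

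Genes known from Sertoli cells, the somatic cells that support the germ cells, moved the same way as *Scara3* and *Prelp*. The summed level of 10 Sertoli cell markers ranged from 1220 to 1339 CPM in WT, from 1846 to 2171 CPM in *Kpna6* ΔIBB/ΔIBB and from 1509 to 1611 CPM in *Kpna6*-/- testes, with no overlap, and no marker was at 0. All 10 markers were called higher in *Kpna6* ΔIBB/ΔIBB and 5 of them in *Kpna6*-/- testes. The median log2 fold change of the 10 markers was 0.68 in *Kpna6* ΔIBB/ΔIBB, where that of all genes was 0.0090, and 0.27 in *Kpna6*-/-, where it was 0.0021. These levels are relative to all RNA of the testis and do not count cells. The study itself counted fewer Sertoli cells per tubule in adult testes of both mutants. Its real-time PCR, relative to *Gapdh*, found no significant difference for *Wt1*, *Rhox5* or clusterin (*Clu*), which are on this list. The part of Sertoli cells in the levels of *Scara3* and *Prelp* was not tested. Among fibroblast markers 5 of 8, and among peritubular myoid markers 4 of 5, were also called higher in *Kpna6* ΔIBB/ΔIBB, and none in *Kpna6*-/-, where both lists overlapped WT in their sums.

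*Mplkip* (ENSMUSG00000012429, chr13:17695192-17699748, plus strand) had 17.0, 16.9 and 18.4 CPM in WT and 32.0, 31.9 and 30.3 CPM in *Kpna6*-/- libraries, which was 1.80-fold the WT mean. The *Kpna6* ΔIBB/ΔIBB libraries, with 17.4, 16.9 and 16.8 CPM, overlapped the WT libraries, with 2 of the 3 just below the lowest of them, and all 3 *Kpna6*-/- libraries stood above the other 6. The log2 fold change in *Kpna6* ΔIBB/ΔIBB was -0.03 ± 0.07 (SE, edgeR adjusted P = 0.761), and its sign turned with the scaling. *Mplkip* shares 793 bases at 95.6% identity with *Gm7102* on chromosome 19, whose level was 1.98 ± 0.28, 1.24 ± 0.22 and 2.16 ± 0.05 CPM in WT, *Kpna6* ΔIBB/ΔIBB and *Kpna6*-/- (SD, n = 3), so that reads between them are uncertain. With both summed, the log2 fold change in *Kpna6*-/- was 0.79 in place of 0.85.

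*Mplkip* and *Sugct*, which encodes a coenzyme A transferase of glutarate metabolism, lie on opposite strands and overlap as annotated. The starts of the transcripts Mplkip-201 and Sugct-201 are 674 bases apart and point away from each other, but the annotated span of *Sugct* reaches chr13:17695553. The 250 bases before the RefSeq start of *Mplkip* at chr13:17695163-17695412 (GRCm38.p6, plus strand) are given because they lie between these transcript starts and inside the span of *Sugct*, with a TGACG motif in capitals.
Mplkip promoter: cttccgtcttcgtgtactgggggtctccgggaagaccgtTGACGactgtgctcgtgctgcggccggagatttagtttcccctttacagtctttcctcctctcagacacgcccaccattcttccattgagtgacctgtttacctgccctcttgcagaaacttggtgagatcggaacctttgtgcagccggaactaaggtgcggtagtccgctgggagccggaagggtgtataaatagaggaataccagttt
*Sugct* had 2.50, 2.24 and 2.86 CPM in WT, 2.14, 2.27 and 2.17 CPM in *Kpna6* ΔIBB/ΔIBB and 4.59, 3.83 and 3.69 CPM in *Kpna6*-/- libraries. As with *Mplkip*, its *Kpna6*-/- libraries lay above all others, but the log2 fold change of 0.67 did not pass the test (edgeR adjusted P = 0.0625). The nearest tested gene on the other side, *Cdk13*, a kinase of the cyclin-dependent family that acts in transcription, differed little (log2 fold change 0.12, edgeR adjusted P = 0.191).

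*Gpx6* had 48.4, 39.9 and 41.5 CPM in WT and 18.7, 19.7 and 17.7 CPM in *Kpna6*-/- libraries, 43.3% of the WT mean. The *Kpna6* ΔIBB/ΔIBB libraries, with 39.9, 34.5 and 44.1 CPM, overlapped WT and stood above all *Kpna6*-/- libraries, and 2 of the 3 lay below the lowest WT library. Their log2 fold change against WT was -0.13 ± 0.09 (SE, edgeR adjusted P = 0.312), and -0.22 without replicate 3 (edgeR adjusted P = 0.0941). *Gpx6* and *Mplkip* were thus the members whose levels in *Kpna6* ΔIBB/ΔIBB were closest to WT, at 91.2% and 97.5% of its mean CPM.

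Both *Gpx6* transcripts were lower in *Kpna6*-/- testes, and the short one by more. Gpx6-202 had 180, 148 and 161 TPM in WT, 164, 137 and 161 TPM in *Kpna6* ΔIBB/ΔIBB and 50.7, 52.8 and 48.5 TPM in *Kpna6*-/- libraries, where its mean was 31.1% of WT. Gpx6-201 had 22.8, 18.6 and 18.8 TPM in WT, 20.5, 18.2 and 26.7 TPM in *Kpna6* ΔIBB/ΔIBB and 12.5, 13.4 and 11.8 TPM in *Kpna6*-/- libraries, 62.6% of WT. Gpx6-202 thus held 89.0% ± 0.42 of the gene's TPM in the WT group, while it held 87.6% ± 1.65 in *Kpna6* ΔIBB/ΔIBB testes and 80.1% ± 0.34 in those of *Kpna6*-/- mice (SD, n = 3). The share in *Kpna6*-/- lay below all other libraries. These values rest on kallisto's division of reads between transcripts that share exons, and are less certain than the total of the gene.

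**Figure D3:**
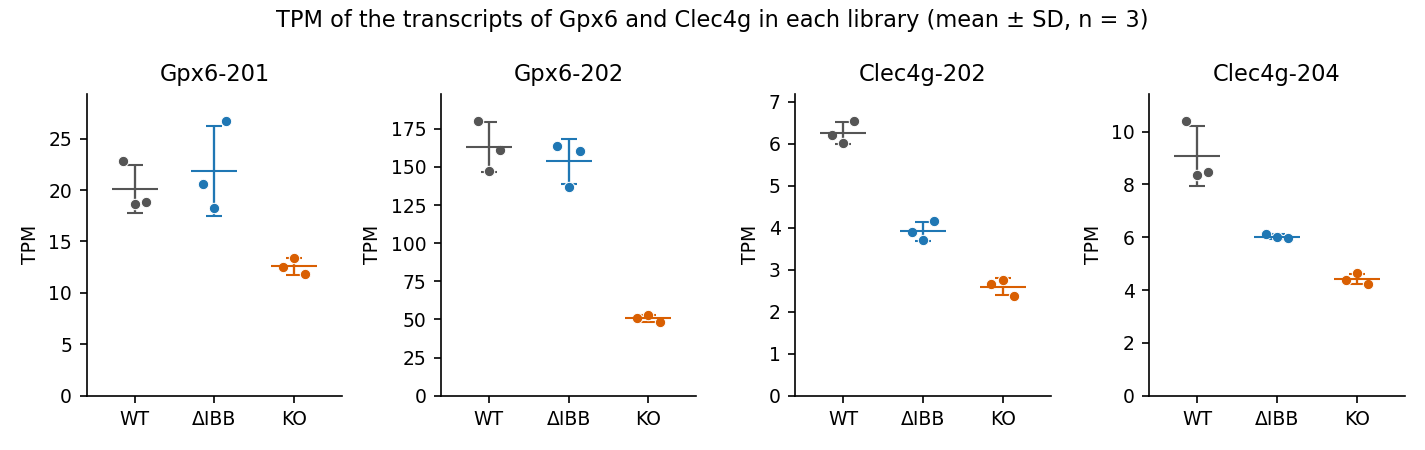
TPM (y axis, from 0) of Gpx6-201, Gpx6-202, Clec4g-202 and Clec4g-204 in each library of WT, *Kpna6* ΔIBB/ΔIBB (ΔIBB) and *Kpna6*-/- (KO) testes, with mean and SD. Gpx6-202 fell from 163 TPM in WT to 50.7 TPM in KO, while both *Clec4g* transcripts were lower in both mutants.

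*Gm13941* had 33.1, 37.5 and 33.4 CPM in WT, 25.8, 29.0 and 25.7 CPM in *Kpna6* ΔIBB/ΔIBB and 16.4, 16.7 and 14.9 CPM in *Kpna6*-/- libraries. *Gm15130* had 31.7, 36.9 and 33.3 CPM in WT, 21.8, 25.2 and 23.5 CPM in *Kpna6* ΔIBB/ΔIBB and 14.1, 14.8 and 16.7 CPM in *Kpna6*-/- libraries. For both models the 3 groups were free of overlap, with WT highest and *Kpna6*-/- lowest. In *Kpna6* ΔIBB/ΔIBB, *Gm13941* fell with a log2 fold change of -0.37 ± 0.07 (SE, edgeR adjusted P = 0.00256) and *Gm15130* with -0.53 ± 0.08 (SE, edgeR adjusted P = 0.000353). In *Kpna6*-/- the means were 46.2% and 44.9% of WT.

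*4930430A15Rik*, the model at the start of *A26c3*, had 107, 110 and 99.7 CPM in WT, 69.9, 75.0 and 73.2 CPM in *Kpna6* ΔIBB/ΔIBB and 71.4, 77.6 and 77.8 CPM in *Kpna6*-/- libraries. Unlike the other models of *A26c3*, its mutant libraries overlapped each other. It fell in *Kpna6*-/- (log2 fold change -0.48 ± 0.05, SE, edgeR adjusted P = 0.00051) and in *Kpna6* ΔIBB/ΔIBB (-0.53 ± 0.05, SE, edgeR adjusted P = 3.13e-05). The summed level of the 3 models was 174 ± 9.36 CPM in WT, 123 ± 5.80 CPM in *Kpna6* ΔIBB/ΔIBB and 107 ± 4.28 CPM in *Kpna6*-/- (SD, n = 3). Summed in this way, a choice made after the values were seen, the models fell in *Kpna6* ΔIBB/ΔIBB with a log2 fold change of -0.50 (edgeR adjusted P = 4.61e-05), and the log2 fold change in *Kpna6*-/- was -0.71. If RefSeq's single gene is the unit, the 8 genes are therefore 7, of which 5 were called in *Kpna6* ΔIBB/ΔIBB.

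**Figure D4:**
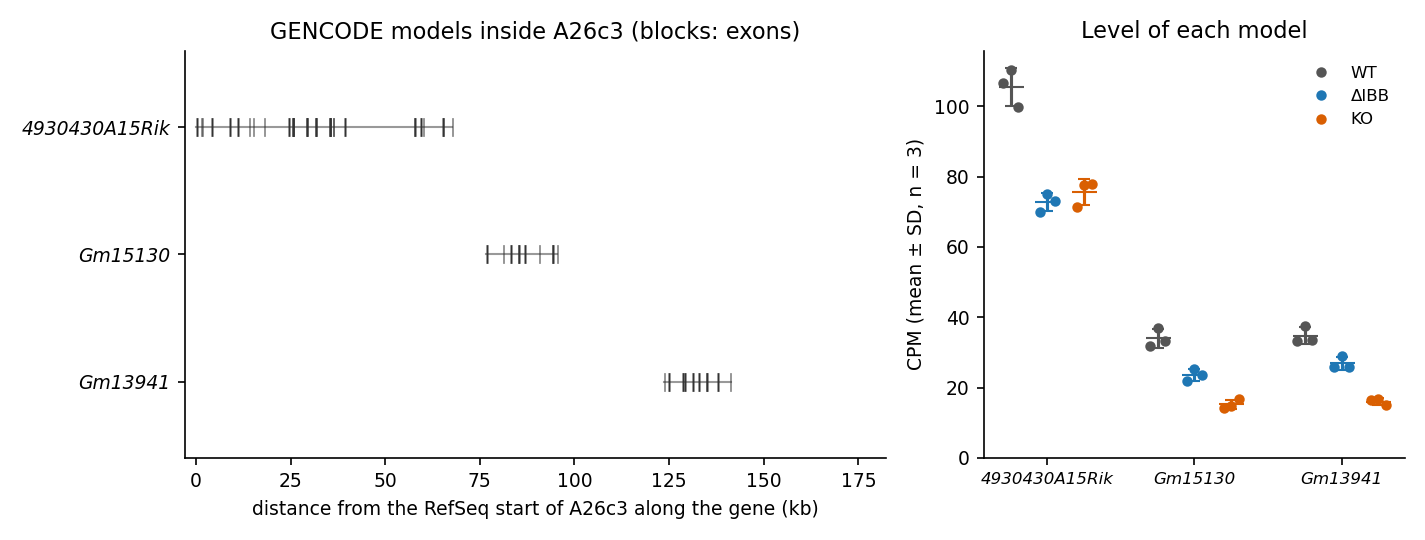
Left, exons (blocks) of the GENCODE models inside the RefSeq gene *A26c3*, by distance from its start in kb along the gene. Right, CPM of each model (points are libraries, with mean and SD) in WT, *Kpna6* ΔIBB/ΔIBB (ΔIBB) and *Kpna6*-/- (KO) testes. *Gm15130* and *Gm13941*, which lie 76.7 to 95.5 and 124 to 141 kb from the start, were lower in KO than in ΔIBB, and *4930430A15Rik* was at 72.7 CPM in ΔIBB and 75.6 CPM in KO.

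*Clec4g* had 15.3, 13.2 and 13.3 CPM in WT, 8.45, 8.07 and 8.50 CPM in *Kpna6* ΔIBB/ΔIBB and 6.44, 6.82 and 6.12 CPM in *Kpna6*-/- libraries. The 3 groups were free of overlap, with *Kpna6*-/- at 46.4% and *Kpna6* ΔIBB/ΔIBB at 59.9% of the WT mean. *Clec4g* fell in *Kpna6* ΔIBB/ΔIBB with a log2 fold change of -0.74 ± 0.09 (SE, edgeR adjusted P = 0.000164). Of its 4 transcripts, Clec4g-204 took 58.7% ± 3.66 of the TPM in the WT group, 58.5% ± 2.97 in *Kpna6* ΔIBB/ΔIBB testes and 62.5% ± 1.66 in those of *Kpna6*-/- mice (SD, n = 3). In the same order the coding transcript Clec4g-202 took 40.6% ± 2.84, 38.0% ± 1.97 and 36.5% ± 1.05. Both were lower in each mutant, Clec4g-202 at 41.4% and Clec4g-204 at 48.7% of WT in *Kpna6*-/-. Of 9 endothelial cell markers, none was called in *Kpna6*-/- and 1, *Vwf*, was called lower in *Kpna6* ΔIBB/ΔIBB. Their summed level was 72.8 to 80.7 CPM in WT, 66.0 to 69.5 CPM in *Kpna6* ΔIBB/ΔIBB and 74.1 to 80.3 CPM in *Kpna6*-/-. *Lyve1*, a marker that sinusoidal endothelium shares with lymph vessels, stayed under 1 CPM in every library. *Stab2*, another of these markers, had a mean of 12.33 CPM in WT, 10.66 CPM in *Kpna6* ΔIBB/ΔIBB and 12.04 CPM in *Kpna6*-/-. Whether sinusoidal endothelium was present, and its part in the level of *Clec4g*, was not tested.

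*Scn8a* (ENSMUSG00000023033, chr15:100869858-101045938, plus strand) had 18.1, 17.2 and 17.9 CPM in WT, 10.5, 11.4 and 9.76 CPM in *Kpna6* ΔIBB/ΔIBB and 10.6, 9.94 and 9.92 CPM in *Kpna6*-/- libraries. Both mutants lay below all WT libraries and overlapped each other, at 59.5% and 57.3% of the WT mean. *Scn8a* fell in *Kpna6* ΔIBB/ΔIBB with a log2 fold change of -0.75 ± 0.08 (SE, edgeR adjusted P = 8.44e-05), and its log2 fold change in *Kpna6*-/- was -0.80. Reads were spread over 14 of 20 listed transcripts, and the long coding transcript Scn8a-204 took most, 57.3% ± 17.8 of the counts in WT (SD, n = 3). Schwann cell markers were not called in *Kpna6*-/- (0 of 5 tested at an adjusted P-value below 0.05 by edgeR), and 1 of 5 was called higher in *Kpna6* ΔIBB/ΔIBB. The part of nerve tissue in the level of *Scn8a* was not tested.

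Levels of germ cell markers are given beside those of the genes that fell. The summed level of 8 spermatid markers was 14194 to 16081 CPM in WT, 15911 to 16378 CPM in *Kpna6*-/- and 10967 to 12362 CPM in *Kpna6* ΔIBB/ΔIBB testes. All 8 were called lower in *Kpna6* ΔIBB/ΔIBB and none was called in *Kpna6*-/-. *Gpx6*, *Clec4g*, *Gm13941* and *Gm15130* were lower in *Kpna6*-/- than in *Kpna6* ΔIBB/ΔIBB, and *Scn8a* overlapped between the mutants. Which cells hold the RNA of these genes, and the part of germ cell number in their levels in either mutant, was not tested. Of the remaining marker lists, 1 of 6 spermatogonial markers, *Gfra1*, was called lower in *Kpna6*-/-. The *Kpna6* ΔIBB/ΔIBB testes had 2 spermatogonial markers called higher and 1 lower, and 1 of 6 spermatocyte markers, 4 of 8 macrophage markers, 2 of 8 Leydig cell markers and 1 of 2 tested epididymis markers (*Crisp1*) called higher. All 4 blood cell markers were called lower there, and no mesothelium marker was called. None of the markers of these last 6 cell types or tissues was called in *Kpna6*-/-.

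Lists of genes related to 6 of the 8 genes, called families here, were then examined. The list for *Mplkip*, the trichothiodystrophy and TFIIH genes, was grouped by disease and protein complex and is not a gene family of *Mplkip*. Over the 6 families, only the sodium channel subunit *Scn4a* was called in *Kpna6*-/-, lower in *Kpna6*-/- (log2 fold change -1.72 ± 0.38, SE, edgeR adjusted P = 0.0454), from 0.844, 1.19 and 2.18 CPM in WT to 0.434, 0.455 and 0.369 CPM. This call was lost in 10 of 16 alternatives, among them those without any 1 of WT replicates 2 and 3 or of the *Kpna6*-/- libraries. Of all genes tested, 1.6% were called in *Kpna6*-/-. None of 4 class A scavenger receptors, 5 glutathione peroxidases, 18 trichothiodystrophy and TFIIH genes, 14 small leucine-rich proteoglycans or 10 group II C-type lectins was called there by edgeR.

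More family members were called in *Kpna6* ΔIBB/ΔIBB, where the share over all genes was 36.6%. Of 14 small leucine-rich proteoglycans, 5 rose and 1 fell, among them *Bgn*, biglycan, with a log2 fold change of 0.85 ± 0.08 (SE, edgeR adjusted P = 2.72e-05), and *Dcn*, decorin, with 0.40 ± 0.07 (SE, edgeR adjusted P = 0.00167). Their median log2 fold change was 0.41, against 1.38 for *Prelp*. Of 5 glutathione peroxidases, *Gpx7*, an endoplasmic reticulum enzyme, and *Gpx3*, the secreted plasma form, rose and *Gpx4*, the phospholipid hydroperoxidase that is abundant in spermatids, fell. The fall of *Gpx4* was small (log2 fold change -0.11 ± 0.03, SE, edgeR adjusted P = 0.0293). Its mean TPM was 2000 in WT and 2031 in *Kpna6* ΔIBB/ΔIBB, so that the direction depended on the measure. *Gpx3* had 24.2, 24.2 and 57.4 CPM in *Kpna6* ΔIBB/ΔIBB against 17.0, 12.2 and 16.2 CPM in WT, so that replicate 3 was highest, and its log2 fold change of 1.23 became 0.68 without that library (edgeR adjusted P = 0.00189). Of 12 sodium channel subunits, 2 rose and 3 fell, among them *Scn4a*, *Scn3a* (-0.73 ± 0.13, SE, edgeR adjusted P = 0.00169) and *Scn10a* (-0.75 ± 0.17, SE, edgeR adjusted P = 0.00542). Of 4 scavenger receptors, *Msr1* fell with a log2 fold change of -0.41, of 18 trichothiodystrophy and TFIIH genes *Ercc2* rose with 0.17, and none of 12 C-type lectins was called. The call of *Msr1* was lost without WT replicate 1 or *Kpna6* ΔIBB/ΔIBB replicate 2, and that of *Ercc2* without any 1 of 5 libraries, all but *Kpna6* ΔIBB/ΔIBB replicate 2. Over all alternatives the highest edgeR or limma adjusted P was 0.138 for *Msr1*, 0.215 for *Ercc2*, 0.0983 for *Scn3a*, 0.0633 for *Scn10a* and 0.199 for *Scn4a*.

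The surroundings of the 8 genes on their chromosomes were examined next, by the 10 tested genes on each side. Leaving out the 8 genes themselves, 6 of 134 neighbours were called in *Kpna6*-/-, 4.48%, with 5 higher and 1 lower. The share was 1.6% over all genes tested and 1.45% over those outside chromosomes 4 and 6. The 1 lower neighbour was *4930430A15Rik*, which RefSeq places in the same gene as *Gm13941* and *Gm15130*. In *Kpna6* ΔIBB/ΔIBB, 45 of 133 neighbours were called, 33.8%, against 36.6% of all genes tested. No neighbour was called in *Kpna6*-/- around *Prelp* or *Scn8a*. *Optc* and *Fmod*, the tested genes nearest to *Prelp*, encode proteoglycans of the same family and had log2 fold changes of 0.71 and 0.07 in *Kpna6*-/-. *Slc4a8* and *Fignl2*, those nearest to *Scn8a*, had -0.06 and 0.34.

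Around *Scara3*, only its neighbour *Clu*, the Sertoli cell marker clusterin, 14548 bases away, was called in *Kpna6*-/-, with a log2 fold change of 0.25 ± 0.04 (SE, edgeR adjusted P = 0.0155), a call that was lost without *Kpna6*-/- replicate 1 or 2 or without WT replicate 2 or 3. *Clu* also rose in *Kpna6* ΔIBB/ΔIBB, with 0.59 ± 0.07 (SE, edgeR adjusted P = 8.15e-05), and *Ccdc25* on the other side had 0.13 in *Kpna6*-/- (edgeR adjusted P = 0.421). Around *Clec4g*, *Camsap3*, a microtubule minus end protein 97989 bases away, was called higher in *Kpna6*-/- with 0.27 ± 0.06 (SE, edgeR adjusted P = 0.0466), a call that was lost without any 1 of the 6 libraries. *Fcer2a* and *Cd209c*, the nearest tested genes on each side of *Clec4g*, lie 12889 and 219571 bases away. Both also encode C-type lectins and had log2 fold changes of 0.10 and 0.02 in *Kpna6*-/-.

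*Mplkip* and *Gpx6* both lie on chromosome 13, and genes near them were called higher in *Kpna6*-/-. *Stard3nl*, which encodes an endosomal protein, lies 1657928 bases from *Mplkip* and 1916330 bases from *Gpx6*. Its log2 fold change was 0.70 ± 0.11 (SE, edgeR adjusted P = 0.00891, or 0.061 without *Kpna6*-/- replicate 1). *Zscan12*, a zinc finger gene 43196 bases from *Gpx6*, had 0.41 ± 0.05 (SE, edgeR adjusted P = 0.0016). *Trim27*, the nearest tested gene on the other side of *Gpx6* at 117401 bases, did not pass the test in *Kpna6*-/- testes (log2 fold change -0.08, edgeR adjusted P = 0.387). *Muc15*, the tested gene before *Gm13941*, stayed under 1 CPM in all libraries.

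**Figure D5:**
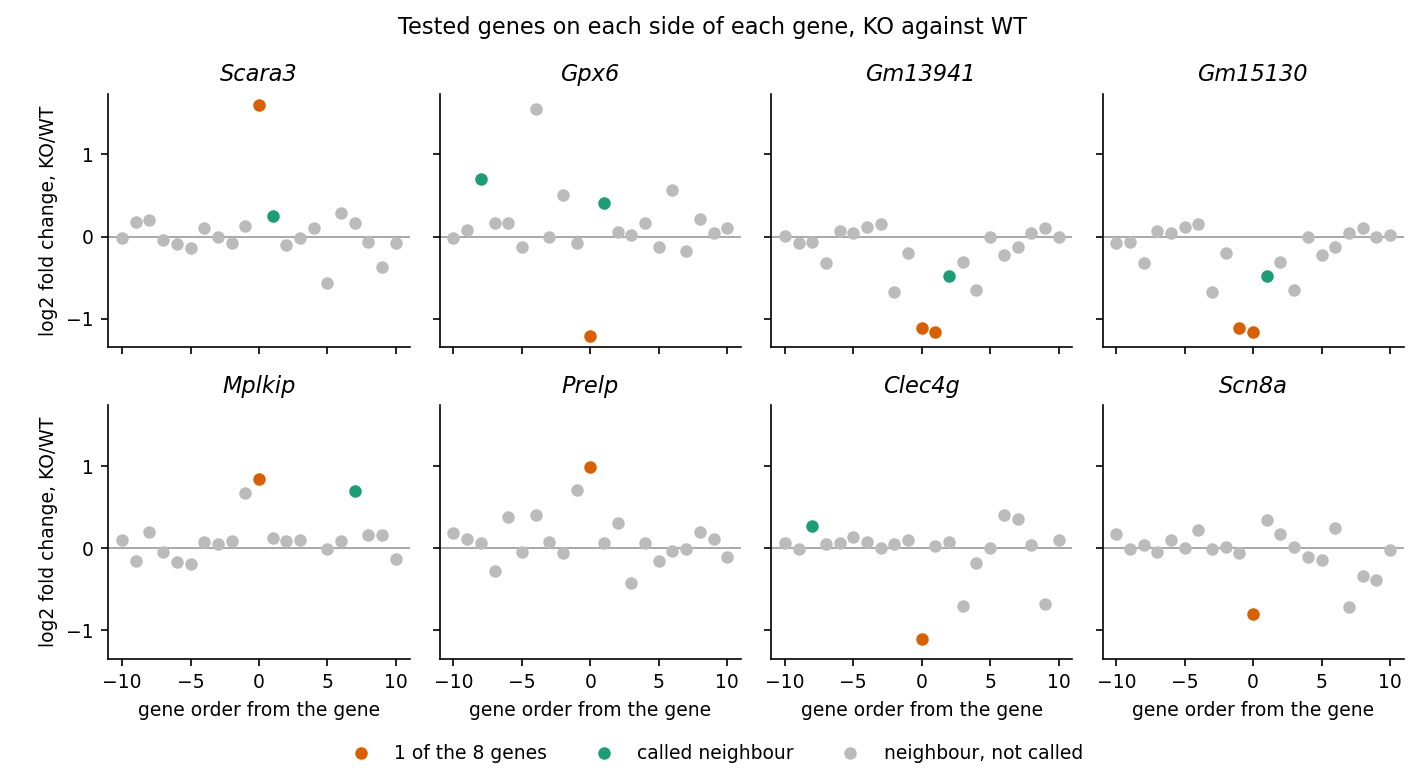
Log2 fold change in *Kpna6*-/- against WT (y axis) of tested genes up to 10 places away on each side of each of the 8 genes, in the order of their start sites (x axis, 0 is the gene itself). Orange points are any of the 8 genes, shown as a description, green points are neighbours called at an adjusted P-value below 0.05, and grey points are other neighbours. Called neighbours are seen beside *Scara3*, *Gpx6*, *Gm13941*, *Gm15130*, *Mplkip* and *Clec4g*.

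Likeness over the 9 libraries is given as a description that rests on 3 genotypes. *Gpx6* and *Mplkip* had a Pearson correlation of log2 CPM of -0.96, *Gm13941* and *Gm15130* of 0.97 and *Clec4g* and *Scn8a* of 0.94, while *Scara3* and *Scn8a* had -0.91. *Gpx6* and *Gm13941* (0.92), *Gm15130* and *Clec4g* (0.92) and *Gm13941* and *Mplkip* (-0.92) were nearly as close, so that these values form no separate groups. *Gm15130* and *Ptma-ps1* were most like *Gm13941*, and *Dnm1*, which encodes dynamin, and *Gm13941* most like *Gm15130*. *Mplkip* was most like *Klra5* and *Gm13394*, which had mean levels of 0.671 and 18.4 CPM in *Kpna6*-/- and at most 0.148 CPM in the other groups. *Gpx6* was most like *Gm12663* and *Gm28814*, both under 1 CPM. *Clec4g* was most like *Sox14*, a SOX transcription factor at 1.20 CPM in WT, and *Tanc2*, and *Scn8a* most like *Pde3b*, a phosphodiesterase, and *Slc5a8*, a monocarboxylate transporter.

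RefSeq (GRCm38.p6) lists promoters, from 250 bases before to 50 after the start, for *Mplkip*, *Gpx6*, *Prelp*, *Clec4g*, *Scn8a* and *A26c3*. They were searched on both strands for 10 motifs, and the choice of the motif shown followed that search. TGACG, which is part of the longer TGACGTCA, was found in *Mplkip*, *Gpx6* and *Clec4g*, and in 20.8% of 32851 promoters, and TGACGTCA in none of the 6 genes (1.79% of all promoters). TATAAA was found in *Mplkip* and *Clec4g* (13.6% of all), CCAAT in *Gpx6*, *Prelp* and *A26c3* (37.4%), AGAACA in *Gpx6* and *Scn8a* (19.0%) and GTTGCC in *A26c3* (12.5%). CANNTG was in all of them but *Mplkip* (72.3%), while GTTACC (7.21%), GGGCGG (35.7%) and the full palindromic androgen response element (0.00913%) were in none. TGACG and TATAAA were thus both found before *Mplkip*, which was higher in *Kpna6*-/-, and before *Clec4g*, which was lower. The *Clec4g* window lies before the start of Clec4g-202. Clec4g-204, which took most of the gene's TPM, starts further in, at chr8:3717553. The 250 bases before *Clec4g* (chr8:3720652-3720901, minus strand) are shown for comparison with those of *Mplkip*, with TGACG, here as its reverse complement, in capitals. A match describes the letters in these windows and no binding.
Clec4g promoter: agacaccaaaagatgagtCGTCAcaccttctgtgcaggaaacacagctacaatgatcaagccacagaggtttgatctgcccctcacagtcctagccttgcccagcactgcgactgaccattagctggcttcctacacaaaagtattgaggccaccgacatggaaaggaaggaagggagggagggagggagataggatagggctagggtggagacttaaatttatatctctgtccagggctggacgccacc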

How the data were processed

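Testis RNA was sequenced as 9 poly(A)-selected paired-end libraries, 3 for each genotype. The authors deposited, for each library, kallisto's estimated counts and TPM per transcript; kallisto 0.45 and mm10 are named in the submitters' processing notes, and the transcript set used is not given in the sources used here. Of 96626 transcripts, 95301 were assigned to 32035 genes by GENCODE M21 (GRCm38), 1325 were not, and the assigned transcripts held 99.5% to 99.6% of the counts.

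Counts were summed per gene and rounded. Genes passing edgeR's filterByExpr were fitted by its quasi-likelihood test (edgeR 4.0.16, R 4.3.3) with TMM scaling on the 6 libraries of each contrast, and P-values were adjusted by Benjamini-Hochberg over all genes tested, with a threshold of 0.05. The SE is the log2 fold change divided by the square root of the F statistic. CPM values come from TMM scaling of all 9 libraries. P-values weigh the difference between groups against the spread between these libraries, which edgeR estimates partly from all genes. With 3 libraries a group, an exact permutation test cannot give less than 0.1. The counting did not use a stated strand setting, so overlapping genes on opposite strands are uncertain. For *Sugct* and *Mplkip* the annotated spans overlap. The 1 transcript counted for each starts 674 bases from the other, and these transcripts do not overlap. Whether reads from the rest of the *Sugct* span fell on *Mplkip* was not tested. Scripts were tested on simulated data.

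The 8 genes, the lists and the tests were chosen with earlier results of these data known. Named genes are these 8, *Kpna6*, in each family the 2 called genes of lowest P-value in each contrast, the nearest tested gene on each side, any of the 10 neighbours on each side called in *Kpna6*-/-, genes with near-identical sequence (blastn 2.17.0, at least 95% over 100 bases) and the 2 genes of highest Pearson correlation. *Gm13394*, *Cercam*, *Gpx4*, *Vwf*, *Lyve1*, *Stab2*, *Gfra1*, *Crisp1*, *Adam7*, *Lcn5* and *Ovch2* were named after their values were seen. Alternatives were DESeq2 1.42.0, limma 3.58.1 on log2(TPM + 1) and log2(TPM + 0.1), other filters and scalings, counts scaled from TPM by length, all 9 libraries in 1 fit, a replicate block, near-identical genes summed, and each library left out. Promoters were taken from RefSeq (GRCm38.p6). A result among the neighbouring genes is counted in the totals but not reported here.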

Additional observations from a re-analysis of the deposited data

Results flagged for a closer look

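*Zscan12* is the nearest tested gene after *Gpx6* on chromosome 13. All its *Kpna6*-/- libraries lay above and all its *Kpna6* ΔIBB/ΔIBB libraries below the WT libraries in CPM. *Zscan12* had 43.8, 45.6 and 45.4 CPM in WT, 38.6, 39.0 and 39.7 CPM in *Kpna6* ΔIBB/ΔIBB and 60.6, 56.9 and 61.3 CPM in *Kpna6*-/- libraries. The log2 fold change of *Kpna6* ΔIBB/ΔIBB against *Kpna6*-/- was -0.61 (edgeR adjusted P = 4.8e-06). This arrangement depends on the scaling. In TPM, *Kpna6* ΔIBB/ΔIBB replicate 3 (28.4 TPM) lay above WT replicate 1 (28.2 TPM), and over the alternatives the log2 fold change of *Zscan12* in *Kpna6* ΔIBB/ΔIBB against WT ranged from -0.22 to -0.066, with an adjusted P of up to 0.39 (limma). *Gpx6* itself overlapped WT in *Kpna6* ΔIBB/ΔIBB. No cause of this difference was tested.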

How the results depend on the processing

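The 6 genes called in *Kpna6* ΔIBB/ΔIBB were 6 under every alternative, except 5 with the *A26c3* models summed, an alternative chosen after seeing the data. Of 135 values of the 8 genes in that contrast, 131 kept their direction and their side of the threshold, and the 4 that turned sign were of *Mplkip*, at 0.065 with library size only, 0.092 and 0.083 with limma on log2(TPM + 0.1) and log2(TPM + 1), and -0.062 to 0.0079 with 1 library left out. In *Kpna6*-/-, 122 of 135 values of the 8 genes moved by less than 1 SD.

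The 299 genes called in *Kpna6*-/- became 477 with DESeq2, 624 with no filter, 64 with length-scaled counts, 33 with limma on log2(TPM + 0.1) and 32 on log2(TPM + 1), and 92 to 518 with 1 library left out, the lowest without *Kpna6*-/- replicate 1 and the highest without WT replicate 1. The 6 called neighbours became 11 with no filter, 2 with length-scaled counts, 1 in each limma fit and 3 to 6 with 1 library left out. The 1 called family gene became 0 with all 9 libraries in 1 fit, with length-scaled counts and in both limma fits, 2 with no filter, and 0 to 2 with 1 library left out. In *Kpna6* ΔIBB/ΔIBB, the 16 called family genes became 10 with length-scaled counts and 9 to 14 with 1 library left out. *Kpna6* in *Kpna6*-/- ranged from -0.38 (without WT replicate 1) to -0.057 with 1 library left out.

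Signs also turned for *Ccdc25* in *Kpna6* ΔIBB/ΔIBB, at 0.0094 with length-scaled counts, 0.097 with library size only, 0.12 in both limma fits and -0.065 to 0.035 with 1 library left out, and for *Stard3nl* there, at -0.023 with length-scaled counts and -0.033 to 0.16 with 1 library left out. With 1 library left out, *Muc15* in *Kpna6*-/- ranged from -0.53 to 0.34, *Fmod* from -0.060 to 0.14, *Cd209c* from -0.065 to 0.079 and *Ercc2* from -0.0065 to 0.12. Over up to 17 alternatives, the calls in *Kpna6*-/- were lost 8 times for *Clu*, 2 times for *Zscan12*, 4 times for *Stard3nl*, 11 times for *Camsap3* and 10 times for *Scn4a*, and never for *4930430A15Rik*. The cause was not tested.

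Same-numbered libraries showed no clear shared deviation from their group means, with correlations of at most 0.07. Whether the samples were paired by replicate number cannot be told from these values. With the replicate number as a block, 229 genes were called in *Kpna6*-/- and 6793 in *Kpna6* ΔIBB/ΔIBB, and 6 of the 8 genes in the latter. *Camsap3* (edgeR adjusted P = 0.0738) and *Scn4a* (edgeR adjusted P = 0.0601) were no longer called in *Kpna6*-/- under the block. Counts of 166 to 1433 per library limit the precision for the 8 genes, and *Scn4a*, *Optc* and *Muc15* were lower still.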
